A study of Mus musculus with 6 samples.

Results

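A group of 9 genes that mark striatal projection neurons and carry dopamine signals was examined in the prefrontal cortex of aged mice. They were Drd1, Drd2, Adora2a, Rgs9, Pde10a, Ppp1r1b, Penk, Tac1 and Pdyn, chosen by name as a check of the dissection and of dopamine signalling, and all 9 were found among the 21006 genes measured. The samples came from 18-month-old male wild type C57BL/6 mice. This age is that of the age label and the growth protocol, while the sample titles carry the tag 17M, which may state a different age. The PND group (n = 3), a model of postoperative neurocognitive disorder, received 1.5% isoflurane for 30 min and then an exploratory laparotomy of 30 min under isoflurane, with lidocaine cream and povidone iodine on the wound, and the CON group (n = 3) received neither anesthesia nor operation. Mice of both groups went through the same behavioral tests and were deeply anesthetized with isoflurane before the brain was taken, so no sample was free of the anesthetic. Each animal gave 1 RNA-seq library, and the levels are FPKM, fragments scaled to exon length and library size, which can be compared between genes of different length. The animals were the replicates, and tissue of 3 animals a group limits the precision of every comparison.

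The striatum is the brain region with the densest dopamine input, and most of its neurons are projection neurons of the direct or the indirect pathway. Direct pathway neurons carry the D1 receptor (Drd1), which raises cAMP, and make the peptide precursors of substance P (Tac1) and dynorphin (Pdyn). Indirect pathway neurons carry the D2 receptor (Drd2), which lowers cAMP, and the adenosine receptor Adora2a, which raises it, and make the enkephalin precursor (Penk). Both kinds contain DARPP-32 (Ppp1r1b), a phosphatase inhibitor switched on by protein kinase A, the phosphodiesterase Pde10a, which breaks down cyclic nucleotides, and Rgs9, which shortens G-protein signals. Neurons of the cortex also use dopamine receptors, and some cortical interneurons make Penk, Tac1 or Pdyn, so these genes are not silent in cortex. The striatum lies directly under the frontal cortex.

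Effective depth, read from the spacing of low FPKM values, was 7208957 to 9368088 fragments a sample, and 0 sample pairs held identical values. The samples differed in how levels followed the GC content of a gene. For the most GC-rich decile (median GC 58.5%), levels lay by a median of 0.49 (log2) above the gene's own mean in CON replicate 2, and in CON replicate 1 the median was -0.56. PND replicate 3 (0.37) and PND replicate 2 (-0.30) also lay on opposite sides, so this tilt ran both ways within each group. Because it touches GC-rich members such as Ppp1r1b (61.0% GC) and Adora2a (59.2% GC) more than Tac1 (42.8%), values with a GC correction are given beside the results. Cortical tissue was present, since the excitatory neuron markers Slc17a7 (vesicular glutamate transporter), Neurod6 and Nrgn averaged 43.6, 86.9 and 53.0 FPKM, and all 12 cortical excitatory markers were above 0 in every sample.

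RefSeq promoter windows, from 250 bases before a start to 50 after it in GRCm38.p6, were found for 6 members, Drd1, Drd2, Rgs9, Pde10a, Tac1 and Pdyn. Those of 4 members are shown: the receptors of the opposing pathways, Drd1 and Drd2, whose levels followed each other, Tac1, the only one of the 6 with a CRE core, and Pde10a, whose levels followed the others least. Each is read 5′ to 3′ on the strand of the gene, and for Drd1 and Pde10a, which have a pair of windows, the more upstream one is given. That of Pde10a lies inside the annotated gene, downstream of its first start. The Drd2 window ends before the annotated gene, which starts at 49340627. First windows of Rgs9 and Pdyn likewise end before the annotated gene. Capitals mark the GC box (GGGCGG or CCGCCC), a site bound by Sp family factors, and in Tac1 also the CRE core, part of the cAMP response element (TGACG or CGTCA).
Drd1, chr13:54055609-54055908, minus strand: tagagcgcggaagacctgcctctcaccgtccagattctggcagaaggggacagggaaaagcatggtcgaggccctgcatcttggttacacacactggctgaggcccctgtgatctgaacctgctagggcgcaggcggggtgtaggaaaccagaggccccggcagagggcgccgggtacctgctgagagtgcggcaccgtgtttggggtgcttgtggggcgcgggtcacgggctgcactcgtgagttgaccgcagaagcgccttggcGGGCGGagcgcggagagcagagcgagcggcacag
Drd2, chr9:49340153-49340452, plus strand: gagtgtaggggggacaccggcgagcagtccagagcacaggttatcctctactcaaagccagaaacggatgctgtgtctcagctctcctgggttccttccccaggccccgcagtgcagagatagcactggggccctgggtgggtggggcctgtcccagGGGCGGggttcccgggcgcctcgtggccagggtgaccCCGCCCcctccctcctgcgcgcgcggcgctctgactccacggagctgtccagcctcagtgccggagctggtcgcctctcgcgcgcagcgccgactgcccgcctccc
Tac1, chr6:7554811-7555110, plus strand: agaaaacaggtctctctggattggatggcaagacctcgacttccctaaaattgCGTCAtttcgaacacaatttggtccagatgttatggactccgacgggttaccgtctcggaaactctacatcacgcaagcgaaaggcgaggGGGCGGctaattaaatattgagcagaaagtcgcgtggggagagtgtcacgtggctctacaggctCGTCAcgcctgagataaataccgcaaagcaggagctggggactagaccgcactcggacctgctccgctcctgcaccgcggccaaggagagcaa
Pde10a, chr17:8801495-8801794, plus strand: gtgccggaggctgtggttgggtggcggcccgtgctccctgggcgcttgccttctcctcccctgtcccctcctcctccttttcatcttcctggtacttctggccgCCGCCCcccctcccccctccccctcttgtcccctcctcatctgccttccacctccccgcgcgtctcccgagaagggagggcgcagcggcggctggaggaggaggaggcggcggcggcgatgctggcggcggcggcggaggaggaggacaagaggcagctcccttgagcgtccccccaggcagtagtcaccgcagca
Both strands were searched, and the letters of these motifs do not overlap one another here. A GC box stood in the first window of 5 of the 6 members, against 35.7% of all 32851 windows of that length, and Pdyn had none. The CRE core stood in 1 of the 6, Tac1, with matches that begin 197 and 43 bases before the start, against 20.8% of all windows. A TATA box (TATAAA or TTTATA) stood in 1 of the 6, Rgs9, against 13.6% of all windows. The first windows of the 6 members had a GC content of 54.0% to 71.3%, against a median of 52.7% over all windows. These are matches of letters only, and no binding was measured.

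All 9 genes were detected in all 6 samples, at levels that fell into 3 tiers. Penk alone formed the top tier, with a mean of 102.5 FPKM over the 6 samples. Drd1 (17.01), Rgs9 (16.9), Tac1 (11.2), Pde10a (10.8), Ppp1r1b (10.6), Pdyn (9.86) and Drd2 (9.35) followed, and Adora2a was lowest with 2.18 FPKM. The range of Penk over samples did not overlap that of Drd1, nor did the range of Drd2 overlap that of Adora2a, while every other pair of neighbours in this order overlapped. Drd1 exceeded Rgs9 in 3 of 6 samples, whereas Rgs9 exceeded Tac1 in 6 of 6. The mean level of Penk in FPKM was above that of the cortical marker Neurod6, and a further striatal gene was also abundant, with a mean of 73.0 FPKM for Gnal, the G-protein subunit that couples the D1 receptor to cAMP. Estimated fragments ranged from 33 for Adora2a in CON replicate 1 to 1727 for Penk in CON replicate 3, so counting error in the sample with the fewest fragments was 3.73% for Pde10a, 3.88% for Penk and 17.5% for Adora2a. These percentages cover counting error only.

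**Figure D1:**
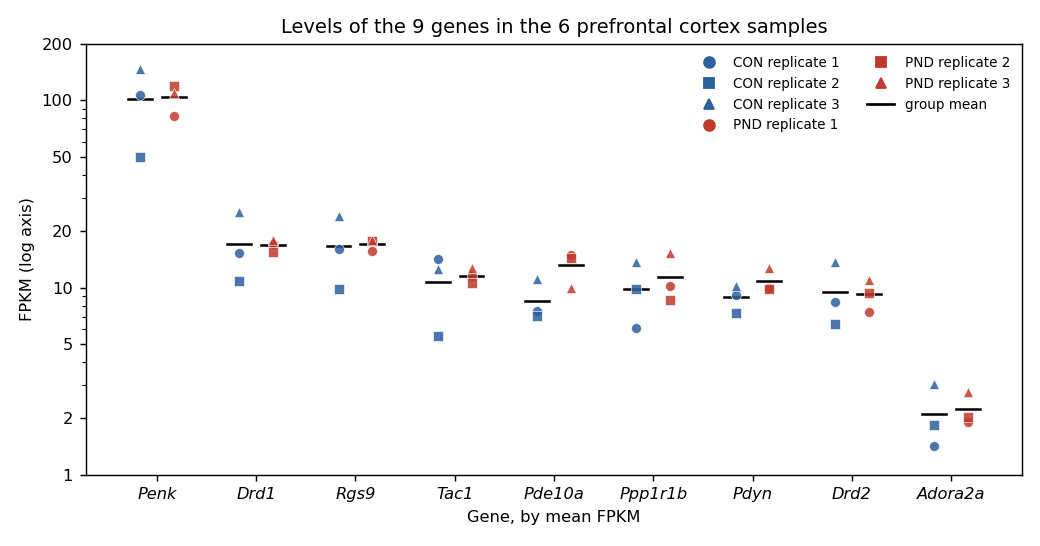
Level of each of the 9 genes (x axis) in FPKM (y axis, log scale) in the 3 CON samples (blue) and the 3 PND samples (red), with the marker shape giving the replicate and the black line the group mean. Penk stands above and Adora2a below the rest, and the CON points spread further than the PND points for most genes.

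Among the genes of the direct pathway, the dopamine D1 receptor Drd1 (ENSMUSG00000021478, chromosome 13, 54051183 to 54055705 in GRCm38) was at 17.02, 15.5 and 18.0 FPKM in PND replicates 1 to 3. In CON replicates 1 to 3 it was at 15.3, 10.8 and 25.4 FPKM. The 3 PND samples lay close together and inside the range of the CON samples. The log2 fold change on the log2(FPKM + 0.1) scale was 0.06 (SE 0.28, 95% interval -0.60 to 0.72, unadjusted limma p 0.842). Tac1, the precursor of substance P (ENSMUSG00000061762, chromosome 6, 7554879 to 7565834), was at 11.5, 10.6 and 12.7 FPKM in PND and at 14.2, 5.51 and 12.5 FPKM in CON. CON replicate 2 alone stood low, and CON replicate 1 stood above every PND sample. Its log2 fold change was 0.22 (SE 0.33, interval -0.56 to 0.997, unadjusted limma p 0.533). Pdyn, the precursor of dynorphin (ENSMUSG00000027400, chromosome 2, 129686565 to 129699844), was at 9.95, 9.78 and 12.7 FPKM in PND and at 9.15, 7.30 and 10.2 FPKM in CON. The groups overlapped only through CON replicate 3, and Pdyn had the smallest spread between replicates of the 9 genes (residual SD 0.23 on the log2 scale). Its log2 fold change was 0.28 (SE 0.17, interval -0.13 to 0.69, unadjusted limma p 0.147).

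Among the genes of the indirect pathway, the dopamine D2 receptor Drd2 (ENSMUSG00000032259, chromosome 9, 49340627 to 49408177) was at 7.37, 9.31 and 10.9 FPKM in PND and at 8.36, 6.42 and 13.7 FPKM in CON. Its lowest and its highest value were both CON samples. The log2 fold change was 0.01 (SE 0.28, interval -0.66 to 0.68, unadjusted limma p 0.978), while the ratio of the PND to the CON mean was 0.969, so the direction depends on the scale. The same held for Drd1, whose ratio of means was 0.981. The adenosine receptor Adora2a (ENSMUSG00000020178, chromosome 10, 75316877 to 75334784) was at 1.92, 2.05 and 2.77 FPKM in PND and at 1.42, 1.84 and 3.07 FPKM in CON. PND again lay within CON, with a log2 fold change of 0.14 (SE 0.31, interval -0.58 to 0.85, unadjusted limma p 0.668). Penk, the enkephalin precursor (ENSMUSG00000045573, chromosome 4, 4133531 to 4138819), was at 82.6, 119.8 and 109.1 FPKM in PND and at 106.9, 50.0 and 146.6 FPKM in CON. It had the widest spread of the 9 genes within CON, where CON replicate 3 stood 2.93-fold above CON replicate 2. Its log2 fold change was 0.15 (SE 0.37, interval -0.71 to 1.02, unadjusted limma p 0.688). Exons of A830012C17Rik on the opposite strand overlap 233 bases of Penk, and whether the counting used strand was not stated, so a small part of its reads is uncertain.

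Of the signalling genes common to both pathways, Pde10a (ENSMUSG00000023868, chromosome 17, 8525372 to 8986648) differed most between the groups. It was at 14.9, 14.5 and 9.98 FPKM in PND and at 7.49, 7.01 and 11.1 FPKM in CON. PND replicates 1 and 2 lay above all CON samples, and PND replicate 3 lay below CON replicate 3. The PND mean was 13.1 ± 2.73 FPKM (SD, n = 3) and the CON mean 8.52 ± 2.21 FPKM (SD, n = 3). The log2 fold change was 0.62 (SE 0.23, interval 0.09 to 1.16), with an unadjusted limma p of 0.0278 and a Benjamini-Hochberg adjusted p of 0.9999 over all genes. The unadjusted limma p was 0.0824 without CON replicate 2 and 0.0957 without PND replicate 1, whereas leaving out PND replicate 2 gave 0.0872 and leaving out CON replicate 1 gave 0.0742. It fell to 0.00976 when PND replicate 3 was left out and to 0.00791 when CON replicate 3 was. Rgs9 (ENSMUSG00000020599, chromosome 11, 109225355 to 109298129) was at 15.8, 17.6 and 18.0 FPKM in PND and at 16.1, 9.79 and 24.2 FPKM in CON. The PND samples lay between CON replicates 2 and 3, and the log2 fold change was 0.13 (SE 0.30, interval -0.57 to 0.82, unadjusted limma p 0.676). Ppp1r1b (ENSMUSG00000061718, chromosome 11, 98348404 to 98357796) was at 10.2, 8.59 and 15.3 FPKM in PND and at 6.05, 9.79 and 13.6 FPKM in CON. Unlike most of the other genes it was lowest in CON replicate 1, and its log2 fold change was 0.24 (SE 0.32, interval -0.52 to 1.003, unadjusted limma p 0.477). Exons of 1700003D09Rik on the opposite strand overlap 460 bases of Ppp1r1b.

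The study's cut-off for a differential mRNA, a change of more than 2-fold with an unadjusted p below 0.05, was passed by 0 of these 9, where 241 of all 18185 tested genes (1.33%) did so. At an unadjusted limma p below 0.05 alone the count was 1 of 9, Pde10a, against 3.13% of all genes, and of all genes 1.73% were past it and higher in PND and 1.4% past it and lower. No gene of the 9 (0) had an adjusted p below 0.05 with limma, where 0.011% of all genes did. With limma-voom on estimated fragments the counts were the same, 0 past the cut-off and 1 at an unadjusted p below 0.05. The latter count was 0 with the replicate block, with the block and GC correction, and without the intensity trend, where the unadjusted limma p of Pde10a was 0.0699, 0.0709 and 0.0519. In 0 of the 9 genes did the groups separate without overlap, against 7.66% of all genes tested. The fitted log2 fold change was above 0 for 9 of 9 genes, with a median of 0.15, against 52.4% of all genes and a median of 0.01. The number above 0 was again 9 without PND replicate 1 or CON replicate 3, and it was 8 without PND replicate 2, 7 without PND replicate 3, 6 without CON replicate 1 and 4 without CON replicate 2. Without CON replicate 2, Penk, Drd1, Drd2, Rgs9 and Tac1 had log2 fold changes of -0.29, -0.23, -0.24, -0.21 and -0.20. The mean over the 9 genes was 0.21 with all samples, -0.02 without CON replicate 2 and 0.46 without CON replicate 3. The upper ends of the 95% intervals lay between 0.68 for Drd2 and 1.16 for Pde10a, and the lower ends between -0.71 for Penk and 0.09 for Pde10a. A p above the threshold does not show that the groups were alike.

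**Figure D2:**
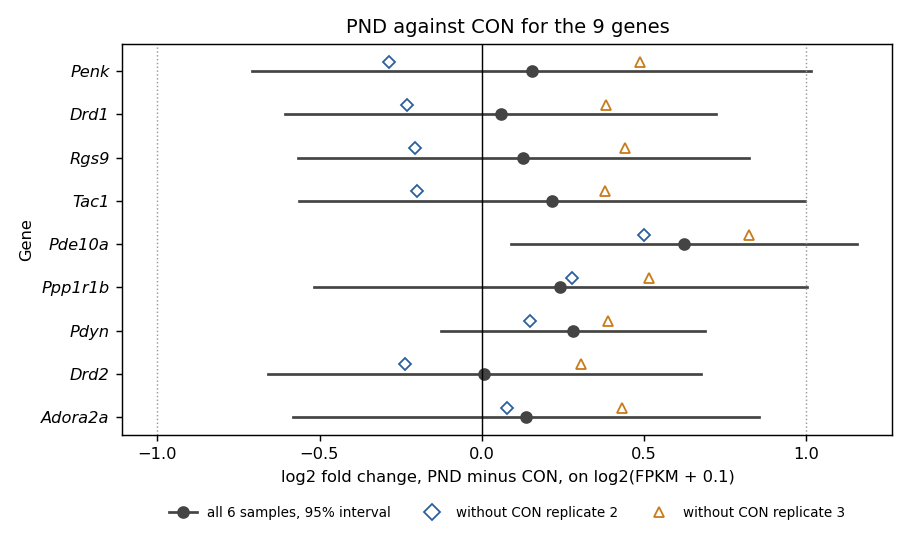
Log2 fold change of PND against CON (x axis, on log2(FPKM + 0.1)) for each gene (y axis), with filled circles and bars for the fit on all 6 samples and its 95% interval, open diamonds for the fit without CON replicate 2 and open triangles for the fit without CON replicate 3. The interval of Pde10a (0.09 to 1.16) is the only one that does not include 0, and 5 diamonds lie below 0. Dotted lines mark a 2-fold change.

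The larger differences were between animals of one group. Over the 9 genes the median ratio of the highest to the lowest CON sample was 2.25, and that of the PND samples was 1.45. Over the 12387 genes that averaged 1 FPKM or more these medians were 1.41 and 1.29, and 14.1% of those genes had a CON ratio of 2.25 or more. CON replicate 2 was the lowest of the 6 samples for 7 of the 9 genes and CON replicate 3 the highest for 5, against 18.6% and 13.1% of genes with at least 1 FPKM. The other 2, Adora2a and Ppp1r1b, the most GC-rich of the list, were lowest in CON replicate 1. All 9 genes lay above their own mean in CON replicate 3 and below it in CON replicate 2. The summed level of the 9 genes was 108.4 FPKM in CON replicate 2, 184.9 in CON replicate 1 and 260.5 in CON replicate 3, and it was 171.3, 207.7 and 209.5 FPKM in PND replicates 1 to 3. Penk alone gave a large part of this sum, at 50.0 FPKM in CON replicate 2, 106.9 in CON replicate 1 and 146.6 in CON replicate 3. In PND replicates 1 to 3 it gave 82.6, 119.8 and 109.1 FPKM. In whole tissue, fewer neurons of a kind and less RNA per neuron cannot be told apart.

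After correction for GC content CON replicate 2 was lowest for 9 of 9 genes and CON replicate 3 highest for 6 of 9, against 20.9% and 16.9% of genes with at least 1 FPKM. The mean deviation of the 9 genes from their 6-sample means (log2) was then -0.74 in CON replicate 2 and 0.43 in CON replicate 3, with the other 4 samples between -0.06 and 0.20. As deposited these values were -0.55 and 0.41, with the others between -0.17 and 0.25. Both pathways took part: in CON replicate 2 the corrected mean deviation was -0.67 for Drd1, Tac1 and Pdyn, -0.88 for Drd2, Adora2a and Penk, and -0.66 for Rgs9, Pde10a and Ppp1r1b. In CON replicate 3 these means were 0.31, 0.61 and 0.38. For 8 of the 9 genes the fold change kept its sign under the correction, and that of Drd2 moved from 0.01 to -0.05.

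The levels of the 9 genes also tended to vary together between animals. Over the 6 samples the median Pearson's r of the 36 gene pairs was 0.61 as deposited, from 0.00 for Tac1 with Ppp1r1b to 0.97 for Rgs9 with Penk. These correlations are descriptions over 6 libraries, and pairs also share the depth and the GC tilt of a library. CON replicate 2, below the mean for all 9 genes, bears on every r, and r without that sample was not computed. After GC correction the median was 0.82 and 20 of 36 pairs were above 0.8, against 9 as deposited. The D1 and the D2 receptor, which mark opposing pathways, had an r of 0.89 as deposited and 0.80 after correction. Their rank correlation (Spearman's rho) was 0.83 as deposited and 0.54 after correction. For Penk with Tac1 the corrected r was 0.82 and rho 0.31, whereas for Drd2 with Adora2a they were 0.98 and 1.0. Ppp1r1b with Rgs9 moved from 0.35 to 0.99 and Ppp1r1b with Penk from 0.17 to 0.90. Pde10a stood apart, with r between 0.25 and 0.51 to the other 8 as deposited and between 0.32 and 0.54 after correction.

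**Figure D3:**
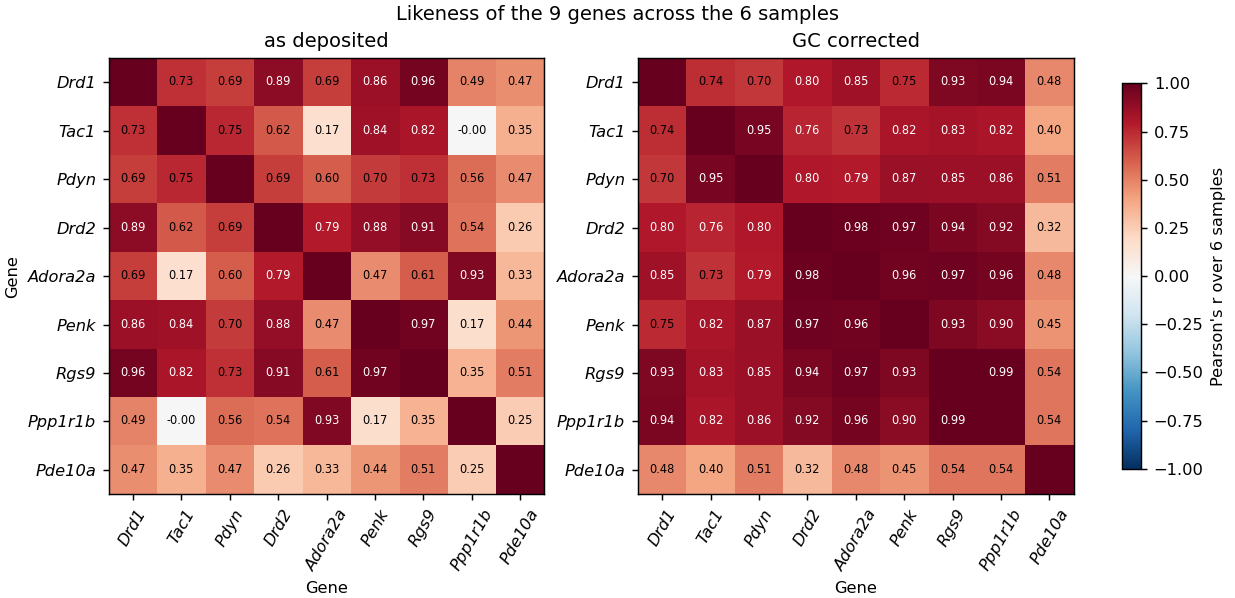
Pearson's r over the 6 samples for each pair of the 9 genes (both axes), for log2(FPKM + 0.1) as deposited (left) and after GC correction (right), with red for positive values. Ppp1r1b and Adora2a join the other genes after the correction, and the row of Pde10a stays the palest.

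Further genes of striatal projection neurons had their low in the same sample as the 9. Of 20 such genes listed, 19 were measured and 0 passed the cut-off or had an unadjusted limma p below 0.05. Without CON replicate 2 the count past the cut-off was again 0, and without PND replicate 2 it was 1. Their median log2 fold change was 0.16, and 17 of 19 were above 0. CON replicate 2 was the lowest sample for 12 of the 19 as deposited and for 15 after GC correction, against 18.6% and 20.9% of genes with at least 1 FPKM. Their mean deviation there was -0.30 (log2) as deposited, against -0.55 for the 9 genes, and -0.48 after correction. As deposited, 9 of the 19 were highest in PND replicate 3 and 7 in CON replicate 3, with mean deviations of 0.30 and 0.19, whereas the 9 genes had their highest mean in CON replicate 3. After GC correction 3 of the 19 were highest in PND replicate 3 and 9 in CON replicate 3, with mean deviations of 0.17 and 0.22. Both lists then had their highest mean in CON replicate 3. Gnal was at 49.7 FPKM in CON replicate 2 and between 73.7 and 82.9 FPKM in the other 5 samples. Pde1b, another phosphodiesterase of these neurons, was lowest in CON replicate 1 (22.4 FPKM) and next lowest in CON replicate 2 (24.3). Likeness to the 9 genes was measured as Pearson's r of a gene with the mean standardised log2 level of the 9 over the 6 samples. Its median was 0.60 for the 18 further striatal genes with at least 1 FPKM, against -0.05 for the 12378 other genes, and 7 of the 18 (38.9%) were above 0.8, against 1.8% of the latter. Such likeness was not limited to the listed genes of striatal projection neurons. The median r was 0.59 for 3 hypothalamus and septum markers with at least 1 FPKM, among them Hap1 with 0.89. It was 0.90 for Slc5a7, a marker of cholinergic neurons, which the striatum also contains. For Clic6, listed for the choroid plexus, r was 0.82, but Ttr of the same list was at most 0.207 FPKM. Among the striatal genes the exceptions included Rasd2, a striatal GTPase (r -0.32), and Chrm4, a muscarinic receptor (r -0.06).

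The 10 genes most like the 9, out of 12378, were Gm11627, Apc-ps1, Bcl6, A930024N18Rik, Zfp873, Vat1l, Ddx21, Kcnab1, Syndig1l and Zfp94, with r from 0.969 to 0.990 over 6 samples. Of these 1 gene, Syndig1l, was in the list of further striatal genes. Bcl6 is a transcriptional repressor, Kcnab1 a subunit of voltage-gated potassium channels and Ddx21 an RNA helicase. Apc-ps1 is a pseudogene whose reads may be shared with its parent gene. So many genes were compared over so few samples that such values can arise without any relation. Bcl6 itself ranged only from 2.81 FPKM in CON replicate 2 to 3.84 FPKM in CON replicate 3.

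Markers of other cells and neighbouring regions were measured in the same samples. Of the 12 cortical excitatory markers 9 were highest in CON replicate 2 as deposited, against 26.2% of all genes that averaged 1 FPKM or more, and their summed level was 363.5 FPKM there, 194.8 to 238.4 FPKM in the other CON samples and 207.4 to 272.5 FPKM in PND. After GC correction 6 of 12 were highest in CON replicate 2 and 5 in CON replicate 1, against 20.4% and 22.0% of genes with at least 1 FPKM. The mean deviation (log2) of the 12 in CON replicate 2 was then 0.15, against 0.43 as deposited, and it was 0.15 in CON replicate 1. The median r of the 11 with at least 1 FPKM to the 9 genes was -0.57 as deposited (range -0.69 to 0.19) and -0.46 after correction (range -0.88 to 0.54). Between PND and CON 0 of the 12 passed the cut-off with limma, and the median log2 fold change was -0.07.

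Cholinergic neurons are interneurons of the striatum and projection neurons of the basal forebrain. Of 5 markers 3 passed the filter, and all 3 were lowest in CON replicate 2. Slc5a7, the choline transporter, was at 1.09 FPKM in CON replicate 2 and between 3.32 and 5.56 FPKM in the other 5 samples. Chat, the enzyme of acetylcholine synthesis, was at 0.262 FPKM there and between 0.427 and 0.810 FPKM elsewhere, and the transcription factor Lhx8 was at 0.062 FPKM there and between 0.458 and 0.801 FPKM elsewhere. For Lhx8 the groups did not overlap (unadjusted limma p 0.0938). Their summed level was 1.41 to 6.71 FPKM in CON and 5.98 to 6.88 FPKM in PND, and 0 of the 3 had an unadjusted limma p below 0.05 or passed the cut-off. In the fits without PND replicate 2, CON replicate 1 or CON replicate 3 the count past the cut-off was 1. Slc18a3, the vesicular acetylcholine transporter, was listed at 0 in 4 of 6 samples, among them PND replicate 1 and the CON samples, and was at 0.105 and 0.221 FPKM in the others. Of 12 hypothalamus and septum markers 9 were measured, with a summed level of 11.3 to 19.6 FPKM in CON and 19.2 to 21.8 FPKM in PND. Its lowest value was again CON replicate 2, and Hap1, Zic1 and Nts made up most of it. Gal was listed at 0 in 5 of 6 samples and Sim1 in 2.

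**Figure D4:**
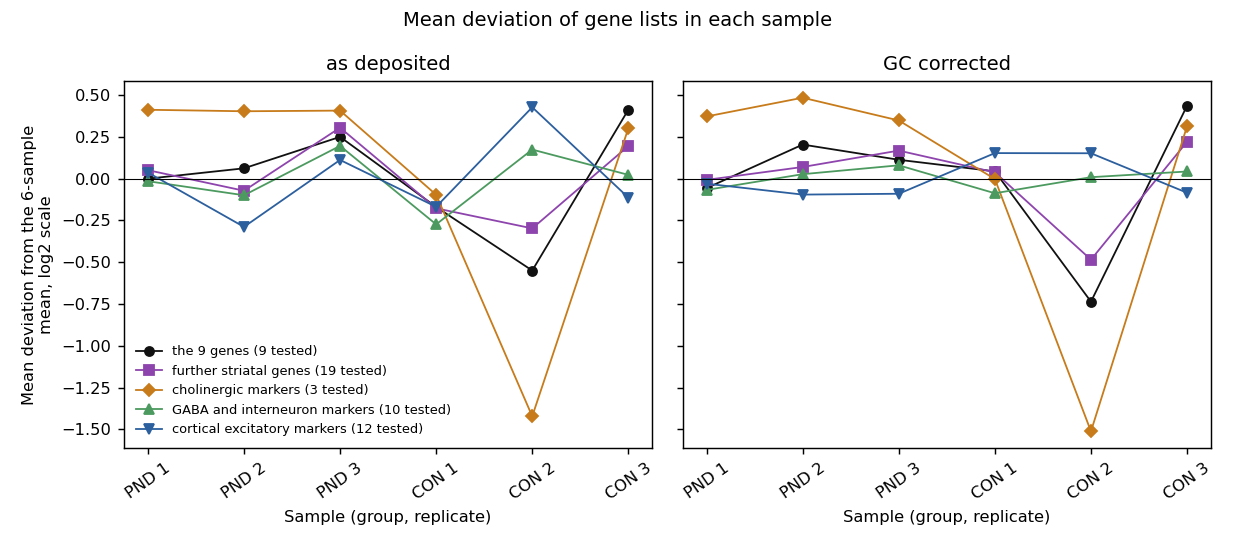
Mean deviation of each gene list from its 6-sample mean (y axis, log2 scale) in each sample (x axis), as deposited (left) and after GC correction (right). The 9 genes, the further striatal genes and the cholinergic markers reach their lowest point in CON replicate 2, where the cortical excitatory markers as deposited reach their highest (0.43). Of the lists not drawn, 3 (choroid plexus, hypothalamus and septum, peptide processing) are also lowest there. The olfactory bulb and dopamine turnover lists, not drawn, are lowest there only after GC correction.

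GABA neuron markers did not follow one pattern. Gad2, an enzyme of GABA synthesis that striatal neurons also contain, was lowest in CON replicate 2 (67.4 FPKM) and highest in CON replicate 3 (126.3 FPKM). Sst, the peptide of a cortical interneuron class, was highest in CON replicate 2 (52.9 FPKM) and lowest in CON replicate 1 (21.2 FPKM). Of the 10 markers 0 had an unadjusted p below 0.05 with limma or passed the cut-off, and Gad1 was at 29.9 ± 0.469 FPKM in PND and 28.6 ± 5.89 FPKM in CON. The summed level of 7 olfactory bulb markers was 1.39 to 4.21 FPKM in CON and 1.45 to 2.74 FPKM in PND, led by Cdhr1, and 0 passed. Choroid plexus markers summed to 1.30 to 2.43 FPKM in CON and 2.43 to 2.97 FPKM in PND, with Ttr, the most abundant transcript of that tissue, at most 0.207 FPKM and at 0 in 3 samples. Among them Clic6, a chloride channel protein, was at 1.88, 1.51 and 2.14 FPKM in PND and at 0.962, 0.701 and 1.49 FPKM in CON, without overlap (log2 fold change 0.80, SE 0.30, unadjusted limma p 0.0319, adjusted p 0.9999). Its unadjusted limma p was above 0.05 in 4 of the 6 fits that left out a sample, and without CON replicate 3 it passed the cut-off (log2 fold change 1.06). The choroid plexus, hypothalamus and septum, and peptide processing lists also had their lowest mean deviation (log2) in CON replicate 2, at -0.40, -0.39 and -0.22 as deposited and at -0.47, -0.60 and -0.29 after GC correction. The olfactory bulb and dopamine turnover lists had theirs in CON replicate 2 only after GC correction, at -0.56 and -0.12. The part of other cells and regions in the levels of the 9 genes was not tested.

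The remaining genes of dopamine transmission were sparse. Of 11 genes for other dopamine receptors and for dopamine synthesis, transport and breakdown, 10 were measured and 8 passed the filter, and 0 of these had an unadjusted p below 0.05 or passed the cut-off with limma. Th, the rate-limiting enzyme of dopamine synthesis, lay between 0 and 0.211 FPKM, and Slc6a3, the dopamine transporter, between 0 and 0.154 FPKM, and both fell below the filter. The D3 receptor Drd3 followed the 9 genes with an r of 0.86 and lay between 0.759 and 1.90 FPKM, while the D5 receptor Drd5 lay between 0.265 and 0.677 FPKM. The breakdown enzymes Maoa and Maob averaged 11.3 and 10.3 FPKM. Maoa lay between 9.51 and 13.4 FPKM and Maob between 9.55 and 11.7 FPKM, with log2 fold changes of 0.11 and -0.08 (unadjusted limma p 0.488 and 0.541). Without PND replicate 1 or CON replicate 2, 1 gene of this list passed the cut-off.

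Downstream of the receptors, 28 of 29 genes of cAMP and DARPP-32 signalling were tested, with a median log2 fold change of 0.01. Of these 0 were higher and 1 was lower in PND at an unadjusted limma p below 0.05, and the 1 gene also passed the cut-off. It was Ppp1cc, a catalytic subunit of the phosphatase that DARPP-32 inhibits, at 0.534, 0.563 and 0.690 FPKM in PND and at 0.666, 2.25 and 2.29 FPKM in CON. CON replicate 1 lay within the PND range, and the log2 fold change was -1.23 (SE 0.46, unadjusted limma p 0.0304, adjusted p 0.9999). Ppp1cc did not pass the cut-off without PND replicate 1, PND replicate 2, CON replicate 2 or CON replicate 3, where the unadjusted limma p was 0.0775, 0.0701, 0.0964 and 0.109. It passed without CON replicate 1 (unadjusted limma p 0.000302) and without PND replicate 3 (0.0494), where 2 genes of this list passed. The most abundant genes of this list, the calcineurin subunits Ppp3r1 and Ppp3ca, which reverse the phosphorylation of DARPP-32, and the kinase subunit Prkar1a, had log2 fold changes of -0.12, -0.15 and 0.00. The median r of the list to the 9 genes was -0.16, against 0.60 for the further striatal genes. Pde7b, a cAMP phosphodiesterase, was highest among them with an r of 0.78.

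For the peptides, 10 of 11 genes of precursor processing and of the matching receptors were tested, with 0 higher and 1 lower at an unadjusted limma p below 0.05 and 0 past the cut-off. Pcsk1, a convertase that cuts peptide precursors, was at 13.7, 11.6 and 12.2 FPKM in PND and at 13.9, 18.1 and 15.9 FPKM in CON, without overlap (log2 fold change -0.35, SE 0.14, unadjusted limma p 0.0384, adjusted p 0.9999). Its unadjusted limma p was 0.109 without CON replicate 2, 0.0851 without CON replicate 3, 0.114 without PND replicate 2 and 0.0935 without PND replicate 3, and it was 0.015 without CON replicate 1 and 0.0418 without PND replicate 1. The processing enzymes Cpe and Pcsk2 were abundant, with means of 459 and 54.9 FPKM, and had log2 fold changes of 0.04 and 0.05. The dynorphin receptor Oprk1 was at 1.90, 1.97 and 2.12 FPKM in PND and at 1.20, 0.587 and 2.06 FPKM in CON, and followed the 9 genes with an r of 0.92. The enkephalin receptor Oprd1 was instead highest in CON replicate 2 (11.1 FPKM), with an r of -0.12.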

How the data were processed

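Ribosomal RNA was removed by the authors, libraries were sequenced on an Illumina instrument, reads were filtered with Seqtk and aligned with HISAT2, and fragments per gene were counted with StringTie, scaled by TMM and deposited as FPKM. The genome build, annotation and strand setting of this step are not given in the sources used here. The submitters' processing notes also name Bowtie 0.12.2 and the builds mm8 and mm9, with no role. Identifiers were matched to symbols (20866 of 21006) and to GENCODE M21 on GRCm38 (20877) for coordinates, merged exon length and GC content of the longest transcript, which were not taken from the deposited values.

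Both groups (n = 3) were fitted with no covariate by lmFit and eBayes (intensity trend on) of limma 3.58.1, in R 4.3.3. The values were log2(FPKM + 0.1), a scale that understates changes of low genes, of the 18185 genes that averaged 0.1 FPKM or more. P-values were two-sided, with Benjamini-Hochberg adjustment over all genes. The cut-off was an absolute log2 fold change above 1 with an unadjusted p below 0.05. The GC correction subtracted, in each sample, a loess curve (span 0.5) of the deviation from the gene mean on GC content. Fragments were estimated from FPKM, exon length and the depth at which the largest share of low values came out whole, so they are estimates: 41.5% to 44.7% lay within 0.05 of a whole number. The fits were tested on simulated data. Named were the 9 genes, the genes of each list with an unadjusted p below 0.05, the 3 of each list with the highest mean and the 10 genes most like the 9. Some genes that this rule names are not reported here. Genes named beyond it were chosen after their values were seen. The 9 genes and the lists were chosen with earlier results of these data known. Gpr52, Drd4, Pde2a, Hcrt, Avp and Oxt were not analysed here.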

Additional observations from a re-analysis of the deposited data

How the results depend on the processing

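The count of the 9 genes past the study's cut-off was 0 in all 11 alternatives that kept every sample and in the 6 fits that left out a sample (0 to 0). The mean log2 fold change over the 9 genes lay between 0.17 and 0.22 in those 11 alternatives and between -0.02 and 0.46 when a sample was left out. The count over all genes, 241, was 25 with a pseudocount of 1 and 59 with a mean of at least 1 FPKM, which tests fewer genes, and ranged from 235 to 388 when a sample was left out. The 388 were found without CON replicate 2. Pde10a had an unadjusted p of 0.0699 with the replicate block, 0.0709 with the block and GC correction and 0.0519 without the intensity trend, and between 0.0194 and 0.0365 in the other alternatives that kept every sample. The log2 fold change of Drd2 was -0.0536 with GC correction and -0.0536 with GC correction and the replicate block.

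When a sample was left out, the log2 fold change ranged from -0.24 to 0.31 for Drd2, from -0.23 to 0.38 for Drd1, from -0.10 to 0.43 for Adora2a, from -0.21 to 0.44 for Rgs9, from -0.29 to 0.49 for Penk, from -0.20 to 0.47 for Tac1 and from -0.0642 to 0.5154 for Ppp1r1b, and it stayed above 0 for Pde10a (0.50 to 0.83) and Pdyn (0.15 to 0.39). The number of genes past the cut-off then ranged from 0 to 1 for further striatal genes, dopamine turnover, peptide processing, cholinergic, hypothalamus and septum, olfactory bulb and choroid plexus markers, from 0 to 2 for cAMP and DARPP-32 signalling, and was 0 to 0 for cortical excitatory and GABA neuron markers. Why these values moved was not tested.

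The groups share replicate numbers 1 to 3, but same-numbered samples did not deviate together. The correlation of their deviations across genes was -0.049, -0.451 and 0.027, with a mean of -0.158 against 0.079 for other pairs, so the numbers were not taken to pair the animals. With the replicate block 0 of the 9 genes had an unadjusted p below 0.05 and 226 of all genes passed the cut-off, and with the block and GC correction 269 did. Depth limited Adora2a most among the 9 genes, with 33 to 80 estimated fragments a sample.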
